A study of Mus musculus with 8 samples.

Results

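Histone genes were followed in primary mouse myofibroblastic hepatic stellate cells (pMF-HSCs) after inhibition of O-GlcNAc transferase (OGT), the enzyme that attaches the sugar O-GlcNAc to intracellular proteins. They were picked by symbol alone. The set holds the numbered H2A, H2B, H3 and H4 genes (H2ac, H2bc, H3c and H4c), the numbered linker histone genes (H1f), and the variant genes H2ax, H2az1, H2az2, H3f3a, H3f3b, Macroh2a1 and Macroh2a2. This gave 76 of the 40840 genes in the tables, made up of 17 H2A, 17 H2B, 12 H3, 12 H4, 11 H1 and 7 variant genes. The first 4 of these families, 58 genes in all, are called the core histone genes here.

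All cells came from male, wild-type C57BL/6J mice aged 15 to 18 weeks. Stellate cells store vitamin A in the liver, and they were purified by density gradient and by the autofluorescence of their retinoids. They were left to become myofibroblasts for 7 days in DMEM with 5% fetal bovine serum. The control group (n = 4 cultures) then received DMSO and the OGTi group (n = 4) received the OGT inhibitor OSMI-1 (50 µM), both for 24 h. Control and OGTi cultures of the same replicate number were paired. The model is thus cells activated on plastic and a single inhibitor at 1 dose and 1 time.

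Core histone genes are the genes a cell uses to wrap newly copied DNA, and their mRNAs normally build up only while DNA is replicated. Most have no intron, and their mRNAs normally end just behind a short stem-loop instead of in a poly(A) tail. The stem-loop binding protein SLBP holds this hairpin, and the U7 ribonucleoprotein guides the cut behind it. Variant histone genes, by contrast, are mostly spliced and polyadenylated and are used throughout the cell cycle. The libraries were made from RNA enriched with oligo(dT), so the values of core histone genes describe transcripts caught in the polyadenylated fraction. The whole pool of histone mRNA was not measured.

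The hairpin is shown first, because it sets the core genes apart from most variants and bears on what an oligo(dT) library can hold. A 16-base stretch, GGNNNTNTTNANNNCC with 2 fully pairing arms of 6 bases, was searched on the sense strand in the 100 bases after each stop codon (GRCm39, GENCODE vM39). It was found behind 16 of 17 H2A, 13 of 17 H2B, 11 of 12 H3, 11 of 12 H4 and 6 of 11 H1 genes, and behind 1 of 7 variant genes, H2ax. Of all 21751 protein-coding genes 0.299% had it. Capitals mark the stretch in these examples, each of which belongs to a gene described below.
H2bc4 (chr13:23868630-23868645, plus strand): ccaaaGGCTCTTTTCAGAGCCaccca
H2ac18 (chr3:96153348-96153363, plus strand): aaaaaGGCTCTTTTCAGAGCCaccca
H2ac23 (chr13:21995068-21995083, plus strand): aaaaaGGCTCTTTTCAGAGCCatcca
H3c6 (chr13:23746077-23746092, minus strand): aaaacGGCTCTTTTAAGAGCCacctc
H1f2 (chr13:23923495-23923510, plus strand): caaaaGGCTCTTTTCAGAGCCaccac
H4c17 (chr13:21996299-21996314, plus strand): ctaaaGGCCCTTTTCAGGGCCatcca
H2ax (chr9:44246537-44246552, plus strand): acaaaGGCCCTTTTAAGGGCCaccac

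The coordinates cover the capitals. All 46 hairpins of H1, H2A, H2B and H3 genes began with GGCTCT. Of the 11 H4 hairpins, 9 began with GGCCCT and 2 with GGTCCT, and that of H2ax began with GGCCCT. The 2 H2A genes that fell in OGTi (below) carried the same letters, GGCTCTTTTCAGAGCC, as the H2A genes that rose. Of 54 tested genes with the hairpin 22 rose in OGTi (edgeR, median log2 fold change 1.71), and of 14 without it 3 rose (median 0.32), where 8.13% of all genes tested rose. The difference between the classes was not tested, and 6 of the 14 are variant genes. The 3 were H2bc22 and the near-identical copies H2bc23 and H2bc24, which had no hairpin within the window in the model used and a second exon instead.

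Promoters are shown for 3 genes with large or opposed changes, as the 250 bases before and 50 bases after the start of the canonical transcript. Capitals mark the octamer ATTTGCAT, the CCAAT box and the TATA box TATAAA, searched as exact letters on both strands. CCAAT was present in the promoters of 17 of 17 H2A, 16 of 17 H2B, 11 of 12 H3, 4 of 12 H4, 7 of 11 H1 and 4 of 7 variant genes, against 39.929% of all protein-coding genes. The octamer was present in 6 H2A, 7 H2B and 1 variant gene and in no H1, H3 or H4 gene, against 1.632% of all. TATAAA was present in 12 H2A, 8 H2B, 4 H3, 7 H4, 4 H1 and 2 variant genes, against 13.204% of all.
H2ac18 (chr3:96152563-96152862, plus strand): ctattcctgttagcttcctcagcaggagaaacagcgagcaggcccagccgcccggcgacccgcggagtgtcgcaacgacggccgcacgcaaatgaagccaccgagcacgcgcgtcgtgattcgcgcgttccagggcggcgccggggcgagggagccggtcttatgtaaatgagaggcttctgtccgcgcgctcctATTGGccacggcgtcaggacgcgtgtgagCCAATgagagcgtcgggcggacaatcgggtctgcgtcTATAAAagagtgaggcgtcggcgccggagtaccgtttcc
H2bc24 (chr13:22017663-22017962, plus strand): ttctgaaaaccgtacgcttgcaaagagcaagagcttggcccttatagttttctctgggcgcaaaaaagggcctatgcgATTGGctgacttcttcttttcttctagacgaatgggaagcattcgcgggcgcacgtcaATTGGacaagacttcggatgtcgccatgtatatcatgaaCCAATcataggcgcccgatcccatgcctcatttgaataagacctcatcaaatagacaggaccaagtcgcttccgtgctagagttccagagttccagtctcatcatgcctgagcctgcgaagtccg
H4c17 (chr13:21995666-21995965, plus strand): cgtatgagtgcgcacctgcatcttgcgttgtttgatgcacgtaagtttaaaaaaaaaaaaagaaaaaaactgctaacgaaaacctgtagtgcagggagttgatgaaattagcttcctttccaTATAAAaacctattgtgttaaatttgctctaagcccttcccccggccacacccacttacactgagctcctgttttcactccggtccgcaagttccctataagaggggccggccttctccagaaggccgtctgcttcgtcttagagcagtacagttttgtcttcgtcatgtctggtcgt

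The H2bc24 sequence also holds all 236 bases that separate its start from that of H2ac24, which is read the other way. The promoters of H2bc23 and H2bc24 were identical over the 298 bases that could be aligned.

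Libraries held 30068876 to 37372420 expected counts, of which histone genes took 0.162% to 0.1658% in control. They took 0.239%, 0.1782%, 0.1818% and 0.1585% in OGTi replicates 1 to 4. Stellate and myofibroblast markers were present in every library (12 of 12 tested, summed TPM 7824 to 14604 in control and 6455 to 14989.9 in OGTi), and Acta2 and Col1a1 were among the abundant ones. Pdgfrb and Lrat were called lower in OGTi (log2 fold changes -1.68 and -1.78, edgeR adjusted p 0.00154 and 0.00232), and the other 10 were not called. Hepatocyte markers (7 genes) summed to at most 1.67 TPM, with Cyp2e1 called higher at no more than 1.2 TPM, and endothelial markers (7 genes) to at most 2.99, with 2 called lower. Macrophage markers (7 genes) summed to 49.8 to 175 TPM in control and 90.2 to 229.7 in OGTi, carried by Cd68 and Lyz2, with Ptprc at no more than 0.11. Cholangiocyte markers (5 genes) summed to 307 to 654 and 128 to 563 TPM, carried by Krt19 and Spp1, with Epcam at no more than 0.79. Cd68 and Sox9 were called higher in OGTi and Krt19 lower (edgeR adjusted p 0.00154, 0.00858 and 0.0462). Their part in the results was not tested, and in bulk RNA fewer cells of a type and less RNA per cell cannot be told apart.

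Several libraries touch the values below. In control replicate 4 the H2A and H3 genes, and some variant genes, were low. It was the lowest control for 13 of 14 tested H2A, 10 of 12 H3 and 5 of 7 variant genes, against 27.1% of all genes tested. OGTi replicate 1 was high for several genes, and OGTi replicate 4 had more genes with a count (23746, against 19035 to 20293 in the other libraries). Main results are therefore also given without the replicates concerned. How these libraries came to differ was not tested.

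OGTi shifted histone transcripts in this fraction upward. Of 68 histone genes with enough counts to test, 25 rose and 3 fell (edgeR with the replicate number as a block, called at a Benjamini-Hochberg adjusted p up to 0.05). Over all 19963 genes tested, 8.13% rose and 10.2% fell. The median log2 fold change was 1.39 over the 68 genes and 0.0053 over all genes. Every pair moved up in 43 of the 68 genes, against 19.4% of all genes, and the OGTi libraries lay entirely above the control libraries in 38, against 11.5% of all genes. The 40 genes without a call had log2 fold changes from -0.98 to 2.82, and most were barely expressed. Without replicate 1 the genes that rose numbered 15 (7.14% of all genes tested), without replicate 3 they numbered 17 (4.38%), and without replicate 4 also 17 (4.77%).

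Histone gene models are short, and short genes as a class were somewhat higher in OGTi. Among the 1743 tested genes with models of 375 to 1000 bases, which include 54 of the 55 tested core genes, the median log2 fold change was 0.26, with 11.5% called higher and 3.16% called lower. The core genes had a median of 1.47, and of 1.27 when each library's trend on gene length was removed from the fit. With that trend removed 21 histone genes rose and 3 fell, against 10.6% and 9.86% of all genes.

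**Figure D1:**
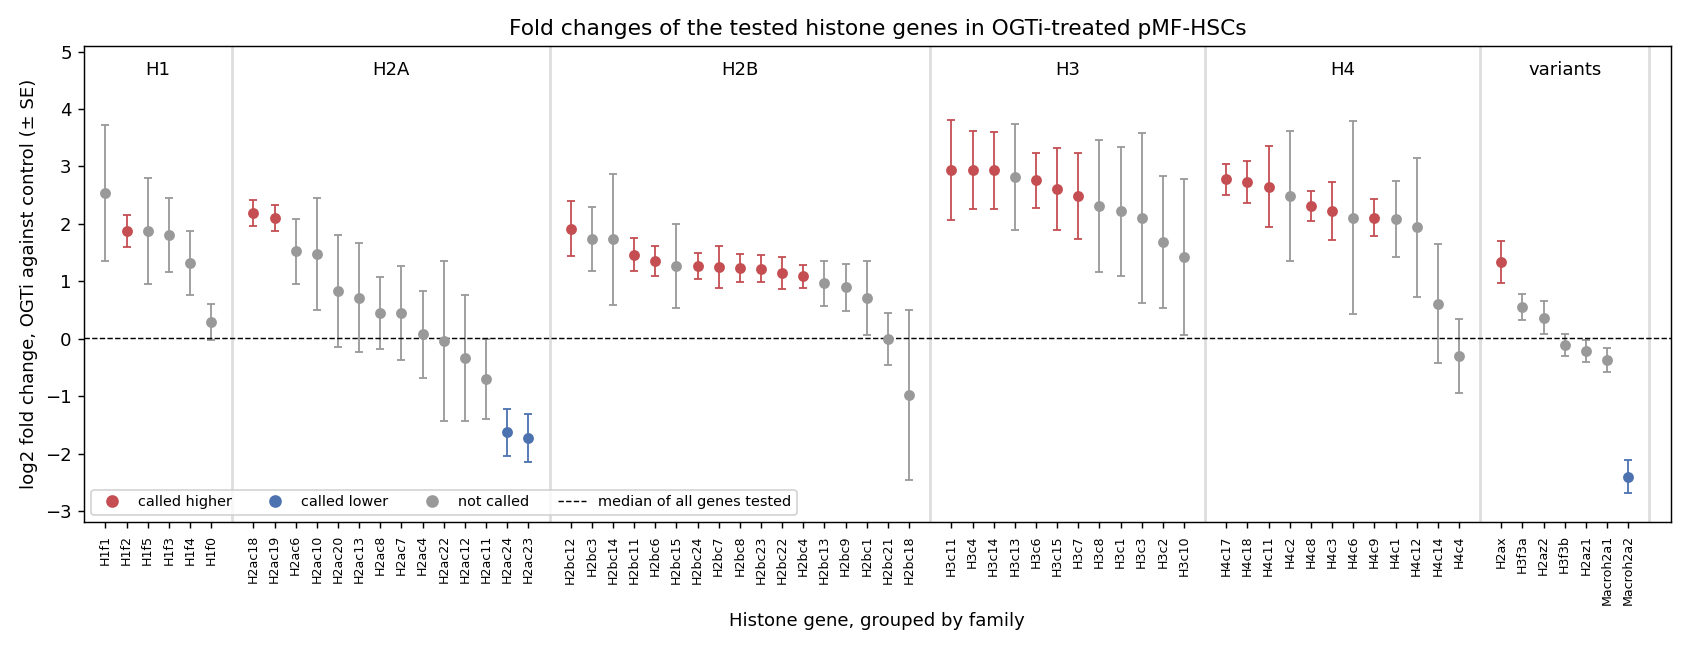
Log2 fold change of OGTi against control (± SE, edgeR with the replicate block, 4 pairs) for the 68 tested histone genes, grouped by family; red points were called higher, blue points lower and grey points neither, and the dashed line is the median of all genes tested (0.0053). All 12 H3 genes lie above 0, the H2A genes run from 2.19 down to -1.73, and Macroh2a2 at -2.40 is the lowest point.

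The families differed in how much their summed level changed. Sums of TPM take gene length into account, but they still shift with how reads were divided between near-identical copies where the copies differ in model length. H4 genes summed to 50.8, 63.3, 57.7 and 64.9 TPM in control replicates 1 to 4 and to 256, 225, 221 and 235 TPM in OGTi. The log2 difference was 2.33, 1.83, 1.94 and 1.85 in the 4 pairs. Summed as counts scaled for library composition (TMM) it was 2.81, 1.93, 2.33 and 2.21, less even, with pair 1 highest on both scales. H3 genes, which were the scarcest family, summed to 6.06, 8.06, 9.11 and 0.92 TPM in control and 29.2, 25.7, 26.2 and 27.1 TPM in OGTi. Pair 4 (log2 difference 4.88) stood out from the others (1.53 to 2.27) because the control value was 0.92. Without replicate 4 the mean log2 difference of H3 was 1.82 in place of 2.59.

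H2A genes summed to 224, 246, 229 and 126 TPM in control and 559.8, 550.0, 603 and 555 TPM in OGTi. H2B genes, the most abundant core family in every library, summed to 974, 983, 1021 and 891 TPM and 2165, 1796, 1502 and 1300.3 TPM. The mean log2 difference over pairs was 1.51 ± 0.44 (SD, n = 4 pairs) for H2A and 0.78 ± 0.29 (SD, n = 4 pairs) for H2B. H2B made up 75.6% to 82.3% of all core TPM in control and 61.4% to 71.9% in OGTi, while H4 made up 4.05% to 5.99% in control and 8.5% to 11.1% in OGTi. The groups did not overlap in either share. H1 genes summed to 37.9, 45.9, 48.9 and 35.4 TPM in control and 142, 80.0, 78.1 and 82.9 TPM in OGTi, and OGTi replicate 1 lay far above the rest.

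The variant genes as a group went the other way on this scale, with 1544, 1637, 1457 and 1546 TPM in control and 1301, 1202, 1262 and 1239 TPM in OGTi. On the scale of TMM-scaled counts, where library composition is adjusted for, the mean log2 difference of the variant sum was -0.0314 in place of -0.30, and the groups overlapped.

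**Figure D2:**
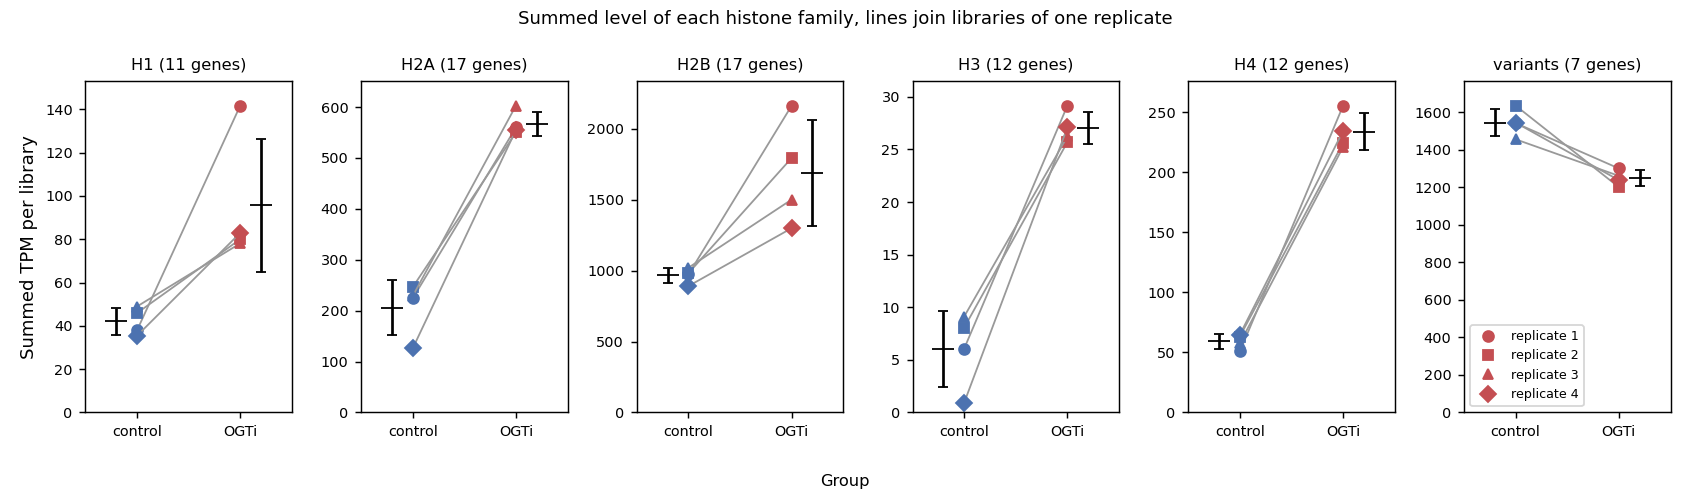
Summed TPM of each histone family in every library, with control on the left and OGTi on the right of each panel; markers are replicates, lines join the libraries of a replicate, and black bars are the mean ± SD (n = 4). In all 5 families other than the variants the OGTi libraries lie above the control libraries, and the control library of replicate 4 is the lowest control point in the H1, H2A, H2B and H3 panels.

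Among H2B genes, 9 of 17 rose and none fell, and the OGTi libraries lay entirely above control in 14. Over all genes tested 8.13% rose, 10.2% fell and 11.5% lay entirely above control. H2bc4 (chr13:23867631-23878163, plus strand) was the dominant core histone transcript, with 50.7% to 68.5% of all core TPM. It had 9401, 9259, 9309 and 8246 scaled counts in control replicates 1 to 4 and 29263, 18269.6, 17320.3 and 14729 in OGTi. All OGTi values exceeded all control values, and replicate 1 was the highest. The log2 fold change was 1.09 ± 0.20 (SE), with an edgeR adjusted p of 0.00526.

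H2bc8 had 246, 233, 251 and 210.0 scaled counts in control and 856, 441, 508 and 472 in OGTi, and H2bc6 had 150.4, 180.3, 157 and 159.9 and 597, 354, 374 and 376. Both rose, by 1.22 and 1.36 on the log2 scale (adjusted p 0.00726 and 0.00572), and in both OGTi replicate 1 was well above the other OGTi libraries. In GENCODE vM39 the H2bc6 model overlaps that of H1f4 on the same strand. Of the 100-base stretches of H1f4 23.4% recur in H2bc6, so the values of H2bc6 and H1f4 may not be independent. H2bc11 had 45.9, 35.2, 42.4 and 46.2 and 119, 99.4, 130.2 and 121 scaled counts, and rose by 1.47 ± 0.29 (SE) on the log2 scale at an adjusted p of 0.00749. H2bc11 was even across the OGTi libraries.

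H2bc22 had 122, 107, 93.9 and 101 scaled counts in control and 383, 237, 227 and 145 in OGTi (log2 fold change 1.15 ± 0.28 (SE), adjusted p 0.0173). The groups did not overlap, but the call was lost without replicate 1 or without replicate 3. H2bc12, a scarcer gene, had 10.1, 11.4, 9.21 and 5.78 and 50.2, 33.5, 30.9 and 25.3 scaled counts (log2 fold change 1.92 ± 0.48 (SE), adjusted p 0.0201), and its call was lost without replicate 1, 3 or 4. The 8 H2B genes that were not called had log2 fold changes from -0.98 to 1.73 and at most 6.59 TPM on average in control. H2bc21, whose model is 2667 bases long, had a log2 fold change of -0.0112.

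Few H2A genes were called. Of 14 tested, 2 rose, 2 fell and 10 were not called, against 8.13% of all genes tested that rose and 10.2% that fell, so the count itself is near that of all genes, and the median log2 fold change was 0.45. The 2 that rose, H2ac18 and H2ac19, lie on chromosome 3, whereas the 2 that fell, H2ac23 and H2ac24, lie in the large cluster on chromosome 13.

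H2ac18 (chr3:96152813-96153398, plus strand) had 541, 539, 669 and 396 scaled counts in control and 2694, 2046, 2601 and 2365 in OGTi, and H2ac19 had 573, 579, 609.6 and 437 and 2684, 1897, 2611 and 2265. In each gene the lowest OGTi library was more than 3 times the highest control library. The log2 fold changes were 2.19 ± 0.22 (SE) and 2.10 ± 0.22 (SE), with edgeR adjusted p of 0.000343 and 0.000364. Nearly all sequence of these genes recurs elsewhere in the annotation (88.3% and 100% of their 100-base stretches), in both cases mostly in Gm20634, a gene model outside the set for which no counts were used here. The 2 values are therefore uncertain and may not be independent. Their summed level was 154, 157, 187 and 119 TPM in control and 522, 518, 587 and 535 TPM in OGTi. The pair made up 63.9% to 95% of all H2A TPM in control and 93.3% to 97.4% in OGTi.

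The other 15 H2A genes summed to 70.5, 88.9, 41.2 and 6.31 TPM in control and to 37.5, 31.5, 15.7 and 20.1 TPM in OGTi. They were lower in OGTi in pairs 1 to 3 (log2 differences -0.91, -1.50 and -1.39) and higher in pair 4 (1.67), where the control library held 6.31 TPM. The groups overlapped. Without replicate 4 the median log2 fold change over the 14 tested H2A genes was -0.16 in place of 0.45.

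The clearest contrast within a locus came from a mirrored duplication on chromosome 13, in which H2bc23, H2ac23 and H4c17 are repeated in reverse order as H4c18, H2ac24 and H2bc24. H2ac23 and H2bc23 start 268 bases apart and are read away from each other, and so are H2ac24 and H2bc24, at 236 bases. H2ac23 (chr13:21994635-21995114, plus strand) had 147, 203, 83.8 and 12.5 scaled counts in control and 44.0, 40.2, 17.7 and 11.5 in OGTi. It was lower in OGTi in all 4 pairs, yet control replicate 4 fell within the OGTi range. H2ac24 had 93.6, 99.4, 50.6 and 7.71 and 45.1, 24.6, 11 and 3.45 scaled counts, with the same overlap. The log2 fold changes were -1.73 ± 0.42 (SE) and -1.63 ± 0.41 (SE), with edgeR adjusted p of 0.0178 and 0.0219. Neither call held without the replicate block (adjusted p 0.0844 and 0.207) or without replicate 2 or 3, and that of H2ac23 was also lost without replicate 1.

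The neighbours of these genes moved the opposite way. H2bc23 had 196, 171, 166 and 169 scaled counts in control and 565, 359.6, 395 and 347 in OGTi, and H2bc24 had 187, 156, 176 and 159.9 and 555, 347, 387 and 366. The groups did not overlap in either gene, and the log2 fold changes were 1.22 ± 0.23 (SE) and 1.27 ± 0.23 (SE) (adjusted p 0.00591 and 0.00492). H4c17 had 26.6, 32.5, 45.1 and 49.1 scaled counts in control and 182, 194, 301 and 399 in OGTi (log2 fold change 2.78 ± 0.27 (SE), adjusted p 0.000294). H4c18 had 11, 22.0, 28.6 and 45.3 and 164, 101, 185 and 224 (log2 fold change 2.73 ± 0.37 (SE), adjusted p 0.00115). The difference in direction between neighbours was not tested as such.

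Copies in this duplication share most of their sequence (100% of the 100-base stretches of H2bc23 and H2bc24, 92.7% and 92.2% of those of H2ac23 and H2ac24, and 88.1% and 80.7% of those of H4c17 and H4c18). How reads were divided between the copies is uncertain, and the 2 members of a type are not independent. Summed scaled counts do not change with a division between the 2 copies. H2ac23 and H2ac24 together held 240.3, 303, 134.4 and 20.2 scaled counts in control and 89.1, 64.8, 28.7 and 14.9 in OGTi. H2bc23 and H2bc24 together held 383, 327, 342 and 329 scaled counts in control and 1120.4, 707, 782 and 713 in OGTi.

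**Figure D3:**
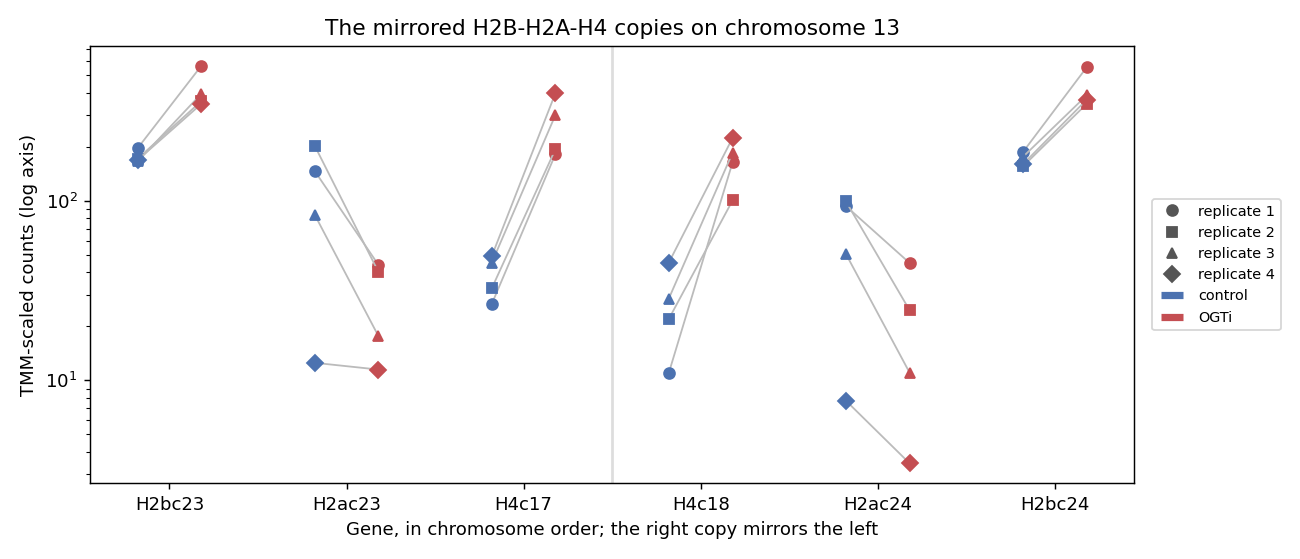
TMM-scaled counts (log axis) of the 6 genes of the mirrored duplication on chromosome 13, in chromosome order, with control in blue, OGTi in red, a marker for each replicate and lines that join the libraries of a replicate. H2B and H4 genes are higher in OGTi in every pair, while H2ac23 and H2ac24 are lower in every pair and are low in both libraries of replicate 4.

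The same comparison was made for H2A and H2B genes with start sites at most 1000 bases apart, read away from each other without overlap. Of 9 such pairs in which both genes were tested, the H2B gene had the higher log2 fold change in 8. These include the 2 near-identical pairs just described, without which it was 6 of 7. Genes of these 7 pairs share sequence as well. Of the 100-base stretches of H2ac11 68.1% recur in H2ac23, and of those of H2ac12 85.3% recur in H2ac7. The 7 pairs may therefore not be independent. The exception among the 9 was H2ac20 (0.83) with H2bc21 (-0.0112). H2ac6 and H2bc4, whose models overlap on opposite strands, were not among the 9. There the H2A gene had the higher value (1.52 against 1.09). H2ac6 was not called, and control replicate 4 was its lowest library (2.89 scaled counts). H2ac11 had a log2 fold change of -0.70 beside 1.47 for H2bc11, and H2ac12 had -0.34 beside 1.92 for H2bc12. Apart from H2ac23 and H2ac24, no H2A gene of these pairs was called, and their errors were wide. Control replicate 4 lowers the control level of these H2A genes, and without that replicate the values of H2ac11 and H2ac12 were -1.35 and -1.18.

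**Figure D4:**
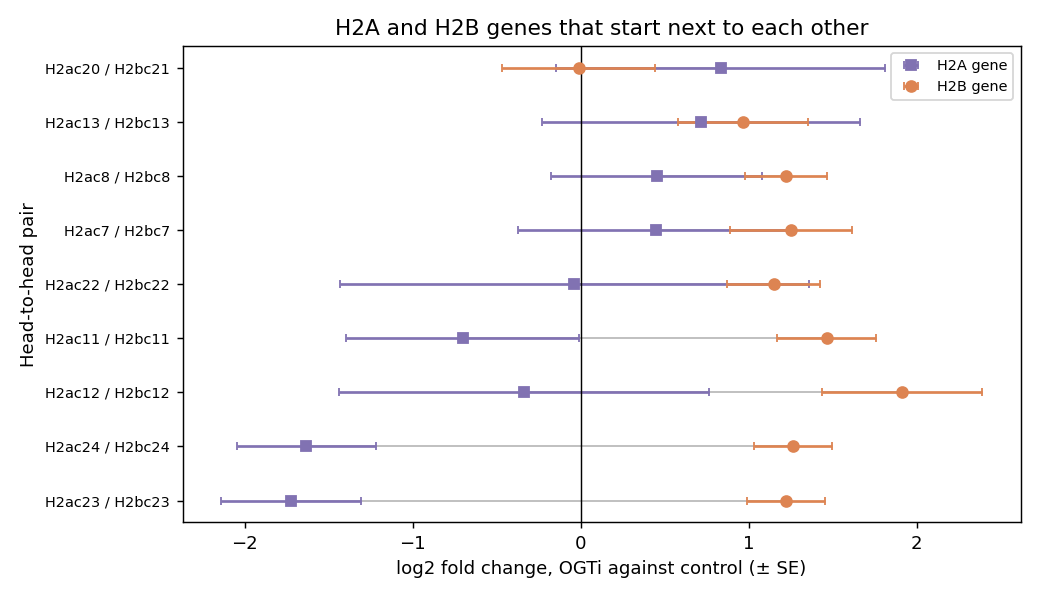
Log2 fold change (± SE, edgeR, 4 pairs) of the H2A gene (square) and the H2B gene (circle) in each of 9 pairs that start next to each other on opposite strands without overlap. The overlapping genes H2ac6 and H2bc4 are not shown. The squares lie to the left of the circles in 8 pairs, with error bars that do not touch in the pairs of H2ac11, H2ac12, H2ac23 and H2ac24.

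Of 12 tested H3 genes 6 rose, none fell and all 12 had a positive log2 fold change. Of all 19963 genes tested 8.13% rose, 10.2% fell and 10023 had a positive value. The 12 H3 genes had a median log2 fold change of 2.54. This was above the H4 median of 2.17, but without replicate 4 the order turned (2.21 for H3 and 2.26 for H4), as it did with limma on log2(TPM + 1) (0.96 and 1.34). Their levels were low. H3c6 (chr13:23745708-23746543, minus strand), the H3 gene with the lowest adjusted p, had 14.7, 18.5, 21.2 and 5.78 scaled counts in control and 133, 57.0, 99.3 and 117 in OGTi. The groups were far apart, and the change was 2.76 ± 0.47 (SE) on the log2 scale at an edgeR adjusted p of 0.0036.

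H3c14 had 6.42, 7.04, 10.1 and 0 scaled counts in control and 45.1, 43.5, 39.7 and 29.9 in OGTi, and H3c4 had 4.59, 2.64, 5.52 and 0.96 and 29.7, 17.9, 24.3 and 33.3. Both rose, by 2.93 and 2.94 on the log2 scale (adjusted p 0.014 and 0.0143). The control libraries of these genes held so few counts that the size of the rise is imprecise. All 100-base stretches of H3c14 (100%) and 61.6% of those of H3c15 recur in Gm20634, so their values are uncertain as well. H3c7, H3c11 and H3c15 rose too, by 2.48 to 2.94, at 0 to 14.9 scaled counts per control library. In control replicate 4, 8 of the 12 H3 genes had no count at all. Without replicate 4, H3 genes that rose numbered 2 (4.77% of all genes tested), and without replicate 1 they numbered 1 (7.14% of all genes tested). The count without replicate 1 is near the share of all genes. The median log2 fold change of H3 genes stayed at 2.21 without replicate 4 and at 2.54 without replicate 1.

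Of 12 H4 genes tested, 6 rose and none fell, against 8.13% and 10.2% of all genes tested. Log2 fold changes ran from -0.30 to 2.78, with a median of 2.17. H4c8 (chr13:23715220-23715689, plus strand) had 63.3, 84.4, 43.3 and 43.4 scaled counts in control and 338, 334, 267 and 207 in OGTi. H4c9 had 60.5, 51.9, 49.7 and 50.1 and 509, 191, 178 and 157, with OGTi replicate 1 far above the others. Their log2 fold changes were 2.31 ± 0.27 (SE) and 2.11 ± 0.32 (SE), with edgeR adjusted p of 0.000561 and 0.00195. The groups did not overlap in either gene.

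H4c3 had 11, 4.40, 8.29 and 4.82 scaled counts in control and 49.2, 25.7, 32.0 and 25.3 in OGTi (log2 fold change 2.22 ± 0.50 (SE), adjusted p 0.0125), and its call was lost without replicate 1. H4c11 rose by 2.65, and its call was lost without replicate 1, 3 or 4. H4c4 was the only H4 gene below 0, with 2.99, 7.73, 3.24 and 7.24 TPM in control and 5.17, 2.95, 2.99 and 2.10 TPM in OGTi, and a change of -0.30 ± 0.64 (SE) on the log2 scale (adjusted p 0.801). H4c4, H4c11, H3c7, H3c11, H3c15, H2ac6, H2ac11, H2ac12, H2ac20 and H2bc21 fall outside the rule for named genes and were chosen after their values were seen.

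Linker histones bind the DNA between nucleosomes. Of 11 H1 genes, 6 had enough counts to test, 1 rose and none fell. Of all genes tested 8.13% rose and 10.2% fell, so the count alone does not set H1 genes apart. H1f2 (chr13:23922791-23924350, plus strand) had 265, 210.2, 308 and 243 scaled counts in control and 1772, 680.1, 742 and 861 in OGTi. It was higher in every OGTi library than in any control library, and the change was 1.88 ± 0.28 (SE) on the log2 scale at an edgeR adjusted p of 0.00182. Without replicate 1, the highest library, it was still called.

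H1f0, the linker histone of cells that have left the cell cycle, has a polyadenylated mRNA and no hairpin. It had 425, 1036, 654 and 385 scaled counts in control and 1045, 615, 862 and 442 in OGTi. The groups overlapped, and the log2 fold change of 0.29 ± 0.32 (SE) was not called (adjusted p 0.592). H1f3 and H1f4 were scarce, with means of 5.77 and 9.22 scaled counts in control and 21.8 and 23.2 in OGTi. Both were higher in all 4 pairs and neither was called (log2 fold changes 1.81 and 1.32, adjusted p 0.082 and 0.134). H1f3 was called higher with DESeq2 and with limma on log2(TPM + 1). H1f6 to H1f10 had fewer than 10 counts in total and were not tested.

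The variant genes did not move as a group. Of 7, H2ax rose, Macroh2a2 fell and 5 were not called. Among all genes tested 8.13% rose and 10.2% fell, so these counts alone do not set the variant genes apart. Macroh2a2, which encodes a macroH2A associated with silent chromatin, had 543, 659, 506 and 323 scaled counts in control and 165, 89.3, 67.3 and 73.5 in OGTi. The groups were separate, with a mean of 508 ± 139 in control and 98.8 ± 45 in OGTi (SD, n = 4). The log2 fold change of -2.40 ± 0.29 (SE) (edgeR adjusted p 0.000679) was the largest decrease among the 68 genes tested and was called under all 13 alternatives. Macroh2a1, its paralogue, had 1354, 1045, 1145 and 1032 scaled counts in control and 959.6, 950.3, 825 and 798 in OGTi. It was lower in every pair and the groups did not overlap, but the log2 fold change of -0.37 ± 0.21 (SE) was not called (adjusted p 0.254). With limma on log2(TPM + 1) or log2(TPM + 0.1) Macroh2a1 was called lower.

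H2ax encodes H2A.X, whose phosphorylated form marks DNA breaks, and its gene can give both a hairpin-ended and a polyadenylated mRNA. It had 359, 342, 282 and 54.0 scaled counts in control and 597, 562, 622 and 411 in OGTi. The call (log2 fold change 1.33 ± 0.37 (SE), adjusted p 0.0307) was lost without replicate 4, whose control library was far below the others (value 0.88, adjusted p 0.0736). It was also lost without replicate 3, without the replicate block, with limma and with the length trend removed.

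H2az1 and H2az2 encode H2A.Z, a variant placed at promoters. H2az1 had 9466, 12516, 6639 and 5759.7 scaled counts in control and 9313, 8101, 6113 and 5399.8 in OGTi, and H2az2 had 946, 1315, 936 and 235 and 1307, 1188, 819.9 and 605. The groups overlapped in both, and the log2 fold changes of -0.22 ± 0.19 (SE) and 0.36 ± 0.29 (SE) were not called (adjusted p 0.495 and 0.436). In H2az2, control replicate 4 was the lowest of all 8 libraries. H2az1 was called lower with limma on either TPM scale.

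H3f3a and H3f3b encode the same protein, H3.3, which is placed in chromatin outside DNA replication. H3f3b had 24738, 17879, 27021 and 32149 scaled counts in control and 25222, 16204, 31432 and 22374 in OGTi. H3f3a had 5022, 6259, 4591 and 6006 and 10802, 5725, 6397 and 10026. Their log2 fold changes were -0.10 ± 0.19 (SE) and 0.55 ± 0.23 (SE) (adjusted p 0.76 and 0.131), and the groups overlapped in both. Upper-quartile scaling brought the median of all genes to 0.13 and turned the value of H3f3b to 0.0224.

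Genes that make, carry or accompany histones were read beside them. Among 19 genes of histone mRNA production, 8 fell and 1 rose, with a median log2 fold change of -0.71 (10.2% of all genes tested fell and 8.13% rose). Slbp, which encodes the hairpin-binding protein, had 119, 101, 88.1 and 90.3 TPM in control and 67.8, 73.8, 95.3 and 66.3 TPM in OGTi, and its log2 fold change of -0.08 ± 0.22 (SE) was not called (adjusted p 0.855). Npat, which encodes the coactivator of histone genes, had 6.69, 4.91, 5.53 and 6.79 and 0.97, 4.19, 3.68 and 4.38 TPM and was lower in all 4 pairs without a call (-0.71 ± 0.36 (SE), adjusted p 0.209). OGTi replicate 1 was the lowest library for Npat.

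Of the genes that fell, Lsm11, a protein specific to the U7 particle, had 0.64, 0.96, 0.75 and 0.90 TPM in control and 0.12, 0.33, 0.14 and 0.23 TPM in OGTi, a low level with groups that did not overlap (log2 fold change -1.75 ± 0.32 (SE), edgeR adjusted p 0.00471). Its partner Lsm10 was the gene that rose, with 111, 115, 112 and 82.5 TPM in control and 180.1, 198, 163 and 92.9 TPM in OGTi and a change of 0.88 ± 0.21 (SE) on the log2 scale (adjusted p 0.018). Lsm10 was named after its values were seen, as the single exception. Srrt, which encodes the cap-binding partner ARS2, fell by 1.76 log2 units (adjusted p 0.00109) and Coil, the Cajal body protein coilin, fell by 1.43 (adjusted p 0.00789). Cdk2 and Ccne2, the kinase and cyclin of S phase entry, fell by 1.48 and 2.20 (adjusted p 0.00238 and 0.0118).

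Among 36 genes of histone chaperones and deposition, 14 fell and none rose, with a median log2 fold change of -0.52 (10.2% of all genes fell). Chaf1b, a subunit of the CAF-1 complex that places histones behind the replication fork, had 24.4, 31.7, 11 and 8.15 TPM in control and 2.63, 6.35, 3.04 and 0.88 TPM in OGTi, and fell by 2.31 log2 units (adjusted p 0.000846). Asf1b, a carrier of H3 and H4, fell by 1.79 (adjusted p 0.00192), Mcm2 by 1.76 (adjusted p 0.00101) and Ssrp1, a subunit of FACT, by 1.00 (adjusted p 0.00852). The fall of Asf1b was not called without the replicate block.

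Of 22 S phase genes, 17 fell and none rose, against 10.2% and 8.13% of all genes, and the median log2 fold change was -1.61. Mcm5, a subunit of the replicative helicase, had 35.0, 38.9, 14.9 and 15.8 TPM in control and 4.74, 9.52, 2.26 and 1.92 TPM in OGTi. Its log2 fold change was -2.34 ± 0.23 (SE) (edgeR adjusted p 0.000317), and the groups did not overlap. Rrm2, a subunit of the enzyme that makes deoxynucleotides, had 120.3, 117, 55.3 and 43.6 and 10.5, 33.9, 12.0 and 6.14 TPM (log2 fold change -2.26 ± 0.27 (SE), adjusted p 0.000651). Mcm3, Mcm6 and Rrm1 fell by 2.18, 2.12 and 1.95. In the same libraries, 23 of the 25 core histone genes that were called thus rose, and every S phase gene that was called fell.

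**Figure D5:**
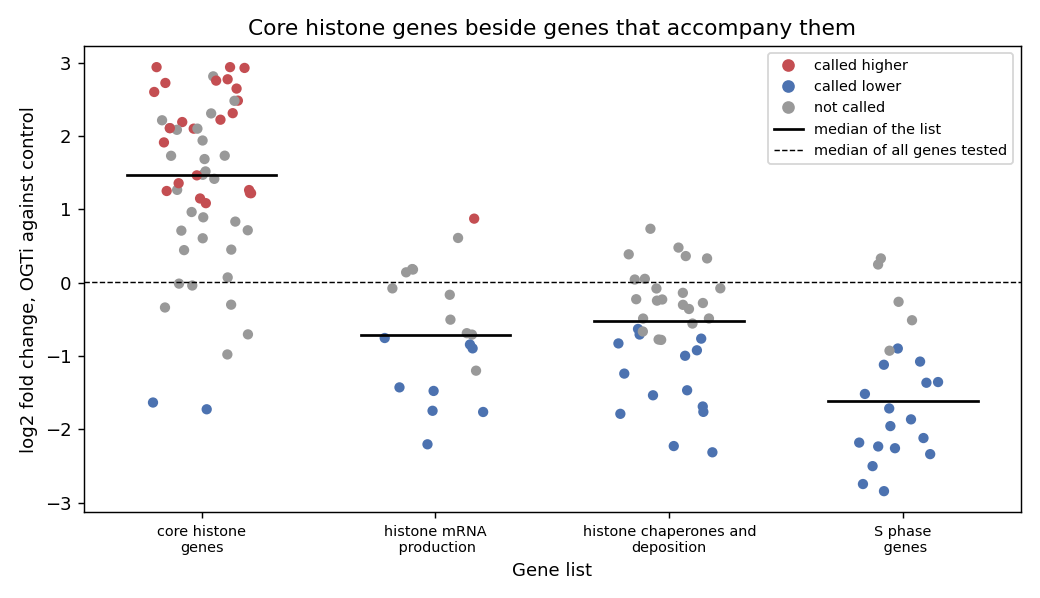
Log2 fold change of OGTi against control (edgeR, 4 pairs) for the 55 tested core histone genes and for the lists of 19, 36 and 22 genes that accompany them; each point is a gene, coloured by its call, the thick line is the median of the list and the dashed line that of all genes tested. The core histone genes centre on 1.47 and the S phase genes on -1.61.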

How the data were processed

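RNA was sequenced from 8 pMF-HSC cultures (4 control, 4 OGTi), grouped by the sample labels. Per the study's methods and the submitters' processing notes, the authors enriched RNA with oligo(dT), made stranded paired-end libraries, mapped reads to mm39 (GRCm39) with Bowtie2 2.3.5.1 and counted them by strand with RSEM 1.3.1. The deposited tables hold expected counts (estimated read numbers for each gene) and TPM (the same scaled for transcript length and depth). The authors' comparison table (DESeq2 1.36.0 counts, fold changes and p-values) was not used. All expected counts of the 76 histone genes were whole, although 25 of these genes share at least 50% of their 100-base stretches with other transcripts, so values of near-identical copies are uncertain.

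Expected counts were rounded and tested with edgeR 4.0.16 in R 4.3.3 (TMM scaling, quasi-likelihood test, genes with at least 10 counts in total). The replicate number was a block, because the study paired cultures by replicate. Deviations from group means correlated across genes at 0.16, 0.224, 0.105 and 0.318 for same-numbered libraries. For libraries of different numbers the correlations were -0.312 to 0.208. These ranges overlap, and because deviations within a group cancel out, some correlations are bound to be negative. This check of the pairing is therefore weak. Benjamini-Hochberg adjustment ran over all 19963 genes tested, with calls at an adjusted p up to 0.05. Standard errors were derived from the log2 fold change and its F statistic. Scaled counts are counts per TMM-adjusted library size. The fit was first tested on simulated counts. At these depths the spread between cultures limits precision, and for scarce histone genes the count itself does. Alternatives used DESeq2 1.42.0, limma 3.58.1, no block, other scalings and filters, a length correction, and leaving out each replicate.

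Hairpins, promoters and shared stretches were read from GRCm39 with GENCODE vM39 canonical transcripts, which can differ in length and ends from the models that were counted (the tables carry RefSeq transcript identifiers). The 7 variant genes, H1 genes with a mean of at least 10 scaled counts, called core genes above that mean (the 20 of lowest adjusted p) and the 5 core genes of highest control TPM are named. Of the companion lists, Slbp, Npat and up to 5 called genes each are named (1 gene is not reported here). Members and lists were chosen with earlier results of these data known.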

Additional observations from a re-analysis of the deposited data

Results flagged for a closer look

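Single libraries stood apart from the other 3 of their group in 7 of 74 groups examined, where chance gives about 1 in 20. OGTi replicate 1 was the high library for H1f2 (1771.7 scaled counts), H4c9 (509), H2bc6 (597.1), H2bc8 (856.2) and the H1 sum (141.7 TPM). For these the other 3 OGTi libraries reached at most 861.5, 191, 375.6, 507.6 scaled counts and 82.9 TPM, which was still above every control library. OGTi replicate 4 was high for H1f4 (39.05 scaled counts, others 15.4 to 19.5). Control replicate 4 was low for H2bc4 (8246.4 scaled counts, others 9259 to 9401). What set these libraries apart was not tested.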

How the results depend on the processing

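Counts of histone genes called ranged as follows. Genes changed numbered 28, 24 to 38 under the other tools, scalings and filters (33 with DESeq2, 38 with limma on log2(TPM + 1)), and 17 to 25 when 1 replicate was left out. The share of all genes changed moved as well. It was 18.4% in the main fit, 28.2% with DESeq2, 23.3% with limma on log2(TPM + 1) and 9.9% to 16.2% when 1 replicate was left out. Genes higher numbered 25, 21 to 33 under the same alternatives, and 15 to 24 when 1 replicate was left out. Genes lower numbered 3, 1 without the replicate block, 5 with limma on log2(TPM + 1) and 5 on log2(TPM + 0.1), and 1 to 3 when 1 replicate was left out. Without the replicate block 24 of the 28 calls were kept, and all 28 kept their sign. Over all genes, 3666 changed, and 1905 to 3124 when 1 replicate was left out, with 6 libraries in each fit. Summed as TMM-scaled counts in place of TPM, the mean log2 difference was 1.10 for H2B, 2.32 for H4 and -0.0314 for the variants. Among the genes chosen by the naming rule, uncalled values that turned sign were those of H3f3b (0.0224 with upper-quartile scaling, -0.21 to 0.0466 with 1 replicate left out), H1f0 (-0.0408 and -0.0405 with limma on log2(TPM + 1) and log2(TPM + 0.1), -0.0483 to 0.66) and Slbp (0.0512 with upper-quartile scaling, -0.26 to 0.0439). Among genes outside the rule, at least H2ac7, H2ac8 and H2bc21 turned sign without replicate 4 (-0.24, -0.0736 and 0.15). The cause was not tested. Of 402 values of the 31 named histone genes under 13 alternatives, 369 kept direction and side of the threshold, and 18 genes did so throughout. Library totals alone moved the median of all genes by -0.19. Counts near 0 in control limit the precision of most H3 genes.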
